A study of Mus musculus with 40 samples.

Results

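The genes described here are 51 genes of epithelial adhesion, keratin filaments and the cornified layer, measured by RNA sequencing in mouse embryonic stem cells. They were chosen by name: every row whose gene symbol was on a list was taken. The rule holds no measured value, but the list was drawn up with earlier results of these data known. All 51 were found in each of the 3 deposited count tables, among 55276 genes in the genotype and time course tables and 55291 in the Pramel7 table. By role they comprise 3 genes of adherens junctions and cell adhesion, 10 of tight junctions and polarity, 9 transcription factors and splicing regulators, 5 keratins, 4 genes of basement membrane attachment, 10 of desmosomes and plakins, 6 of surface proteolysis and trafficking, and 4 of the cornified layer. A filter on low counts left 49 of them for testing in the genotype table, 48 in the time course and 49 in the Pramel7 table. Pkp1 failed the filter in all tables, Ehf in the time course and Pramel7 tables, and Sprr2a3 in the genotype and time course tables.

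All libraries came from E14tg2a, a mouse embryonic stem cell line kept in medium with serum and leukaemia inhibitory factor. The genotype table held 2 libraries each of unmodified cells (WT), Dux knockout cells (DuxKO), Dppa2 knockout cells (Dppa2KO), cells without Ctbp1 and Ctbp2 (CtbpDKO), cells without both Ctbp genes and Dux (Ctbp_DuxTKO), and cells called DKO_Dppa2 here, after their description; the title and genotype fields of the last group read Dppa2_DuxTKO instead. The time course held 2 libraries of CtbpDKO cells at each of days 0, 3, 9, 12 and 18. Their titles add Dox without saying what was given or when, and their descriptions begin with iCt2. The Pramel7 table held 4 WT libraries and 2 each of DuxKO, Pramel7 knockout (P7KO), Pramel7 overexpression (P7OE) and Dux knockout with Pramel7 overexpression (DuxKO_P7OE). How many clones stand behind a genotype, and whether replicates were separate cultures, is not given in the sources used here, so p-values measure the spread between these libraries, which may be technical.

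CtBP proteins are corepressors without DNA binding of their own. They are recruited by sequence-specific factors, among them the ZEB and SNAIL families, which bind E-box sequences near genes such as E-cadherin and repress them. Epithelial cells hold together through cadherins and claudins at their junctions, keratins anchored at desmosomes, and laminin and integrin contacts to the basement membrane. Embryonic stem cells have some of these features, since they grow as compact colonies joined by E-cadherin, and simple-epithelium keratins such as Krt8 and Krt18 are known as early markers of the trophoblast lineage. Dux and Dppa2 are known for their part in the 2-cell-like state, a rare state of these cultures that resembles the early embryo.

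The targeted genes come before the members. In WT cells of the genotype experiment Ctbp1 counts were 1911 and 2109, with at most 4 in every CtbpDKO, Ctbp_DuxTKO and DKO_Dppa2 library. Ctbp2 had 6293 and 6591 counts in WT and 1429 and 1568 in CtbpDKO; a count over the whole gene cannot show which exons were deleted. For Ctbp_DuxTKO and DKO_Dppa2, loss of Ctbp2 was taken from the labels, and its counts are not given here. In the time course Ctbp2 had 1184 and 1328 counts at day 0, 11119 and 11231 at day 3, 8466 and 6774 at day 9, 866 and 1268 at day 12, and 926 and 1646 at day 18, while Ctbp1 stayed at 4 counts or fewer. Dppa2 had 1208 and 1027 counts in Dppa2KO against 1707 and 1868 in WT, so its RNA was still present there, and 426 and 464 in DKO_Dppa2 against 2947 and 3628 in CtbpDKO. Duxf3, the Dux copy in these tables, had 40 and 24 counts in CtbpDKO, 1 and 0 in WT, and 0 in every DuxKO, Ctbp_DuxTKO, Dppa2KO and DKO_Dppa2 library. Both fields naming DKO_Dppa2 were thus met in part: Ctbp1 was nearly absent there, as in the description, and Duxf3 was at 0, as under the title, but Duxf3 was also at 0 in Dppa2KO, so these counts do not show whether Dux was deleted. Pramel7 had 2 to 4 counts in the WT libraries of its table, 0 and 3 in P7KO, 435 and 431 in P7OE, and 537 and 588 in DuxKO_P7OE.

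The libraries held 19944644 to 36025046 counts in the genotype table, 16674526 to 30169626 in the time course and 10123058 to 30135341 in the Pramel7 table. Replicates differed by more than counting noise (chi-square per gene 14.3 to 166), and none was counted as a duplicate. Tests covered 21193, 20612 and 20161 genes.

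Promoter sequence could be shown for part of the set. RefSeq promoter windows of build GRCm38.p6, each 250 bases before and 50 after a start site, were matched by symbol to 28 of the 51 genes, in 36 windows, some of which overlap; Cdh1, Misp and Esrp1 are among the 23 without an entry. The E-box CACCTG, or CAGGTG on the other strand, was present in 26 of the 36 windows (72.2%), beside 6640 of 32851 windows of all genes (20.2%). Counted by gene, 22 of 28 (78.6%) had it in at least 1 window, beside 6098 of 27025 (22.6%). The windows of Sprr2a1 and Sprr2a2 have the same sequence and that of Sprr2a3 shares most of it, so these copies are not independent counts. The grainyhead-like element AACCGGTT was in 0 of the 36 windows and in 0.146% of all windows, and its shorter core AACCNGTT (AACNGGTT on the other strand, a pattern that includes the element) was in 1 of 36, that of Rab25, and in 2.09% of all. These are matches of letters only, with no test, and binding was not measured. Of the 24 genes that rose in each of the 3 comparisons of Ctbp loss described next, 12 had an entry and 10 of these an E-box, all but Spint1 and Tmem40; of the other 27 members, 16 had an entry and 12 an E-box. Windows of 4 of those 10 and that of Spint1, with none, are printed 5′ to 3′ on the gene's strand to show where the E-box lies, in capitals; they were chosen after the matches were seen: Krt8 (chr15:102004293-102004592, minus strand) has it at position -111 from the start site, Lamb3 (chr1:193301993-193302292, plus strand) at -6 and 5 and none in a second, overlapping window, Ap1m2 (chr9:21312284-21312583, minus strand) at -81, -51, -21 and -9, and Elf3 (chr1:135258423-135258722, minus strand) at -140. Spint1 lies at chr2:119237110-119237409, plus strand.
Krt8: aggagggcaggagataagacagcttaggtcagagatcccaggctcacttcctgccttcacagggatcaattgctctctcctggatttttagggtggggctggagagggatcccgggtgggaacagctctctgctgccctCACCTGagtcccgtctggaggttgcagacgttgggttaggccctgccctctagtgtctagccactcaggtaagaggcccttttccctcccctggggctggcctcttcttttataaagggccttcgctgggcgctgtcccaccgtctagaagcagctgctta
Lamb3: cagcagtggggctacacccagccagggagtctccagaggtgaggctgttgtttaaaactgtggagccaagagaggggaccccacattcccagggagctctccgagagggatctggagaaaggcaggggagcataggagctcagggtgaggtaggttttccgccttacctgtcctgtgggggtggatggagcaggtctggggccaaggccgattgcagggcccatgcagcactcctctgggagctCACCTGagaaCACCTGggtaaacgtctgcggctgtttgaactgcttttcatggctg
Ap1m2: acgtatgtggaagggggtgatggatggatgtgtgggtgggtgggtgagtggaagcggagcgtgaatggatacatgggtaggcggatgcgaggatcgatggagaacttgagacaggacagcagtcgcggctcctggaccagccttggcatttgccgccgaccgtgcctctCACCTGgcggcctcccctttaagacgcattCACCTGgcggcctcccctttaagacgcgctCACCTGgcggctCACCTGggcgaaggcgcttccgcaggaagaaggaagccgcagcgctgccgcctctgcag
Elf3: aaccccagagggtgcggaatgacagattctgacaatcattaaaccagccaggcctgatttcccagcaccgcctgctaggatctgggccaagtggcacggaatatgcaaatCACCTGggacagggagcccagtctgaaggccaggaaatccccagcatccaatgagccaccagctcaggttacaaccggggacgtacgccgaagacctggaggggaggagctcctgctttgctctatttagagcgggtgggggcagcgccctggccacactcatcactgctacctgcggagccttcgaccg
Spint1: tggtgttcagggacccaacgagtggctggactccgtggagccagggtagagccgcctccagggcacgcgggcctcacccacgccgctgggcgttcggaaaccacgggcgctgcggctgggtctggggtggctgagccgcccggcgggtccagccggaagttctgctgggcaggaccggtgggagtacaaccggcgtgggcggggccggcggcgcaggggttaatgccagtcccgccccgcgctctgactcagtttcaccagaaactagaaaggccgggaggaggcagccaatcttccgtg

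Ctbp loss could be compared on 3 backgrounds that share no library: CtbpDKO with WT, Ctbp_DuxTKO with DuxKO, and DKO_Dppa2 with Dppa2KO. Most of the epithelial genes were higher without Ctbp on each background. In CtbpDKO, 30 of the 49 tested members rose and 2 fell at an adjusted p under 0.05 (edgeR quasi-likelihood test, Benjamini-Hochberg over all genes tested), beside 14.7% of all genes that rose and 11.4% that fell; 22 of them rose more than 2-fold. In bulk RNA, more cells of a type and more RNA per cell cannot be told apart, here and in all that follows. In Ctbp_DuxTKO, 41 rose and 1 fell, beside 21.4% and 19.6% of all genes, and in DKO_Dppa2 31 rose and 5 fell, beside 15.2% in each direction. The median log2 fold change of the tested members was 1.00, 1.90 and 1.30 on the 3 backgrounds (0.98, 1.90 and 1.33 with genes that were at the floor of 3 counts set to their bound), where that of all genes was 0.01 in CtbpDKO. Of the members, 24 rose in all 3 comparisons, beside 5.72% of all genes, and 0 fell in all 3, beside 3.87%. Those 24 are Cdh1, Cldn4, Tjp3, Esrp1, Esrp2, Elf3, Krt7, Krt8, Krt18, Krt19, Krt17, Lamb3, Dsp, Dsg2, Dsc2, Pkp2, Pkp3, Ppl, St14, Spint1, Spint2, Ap1m2, Misp and Tmem40. Another 9 rose in 2 of the comparisons (Cdh3, Cldn6, Cldn7, Crb3, Grhl3, Lama3, Itgb4, Evpl and Rab25) and 8 in 1 (Marveld2, Ovol1, Ovol2, Itga6, Perp, Jup, Sprr2a1 and Sprr2a2). Sprr2a1 and Sprr2a2, both among the 41 of Ctbp_DuxTKO, are copies with nearly equal counts and are not independent. Epcam, Cldn3, Ocln and Grhl2 rose on at least 1 background and fell on at least 1, Tjp1 only fell, and Marveld3, Grhl1 and Ehf passed the test in none. Leaving out any single library left 27 or 28 members higher in CtbpDKO, 36 to 39 in Ctbp_DuxTKO and 28 or 29 in DKO_Dppa2.

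**Figure D1:**
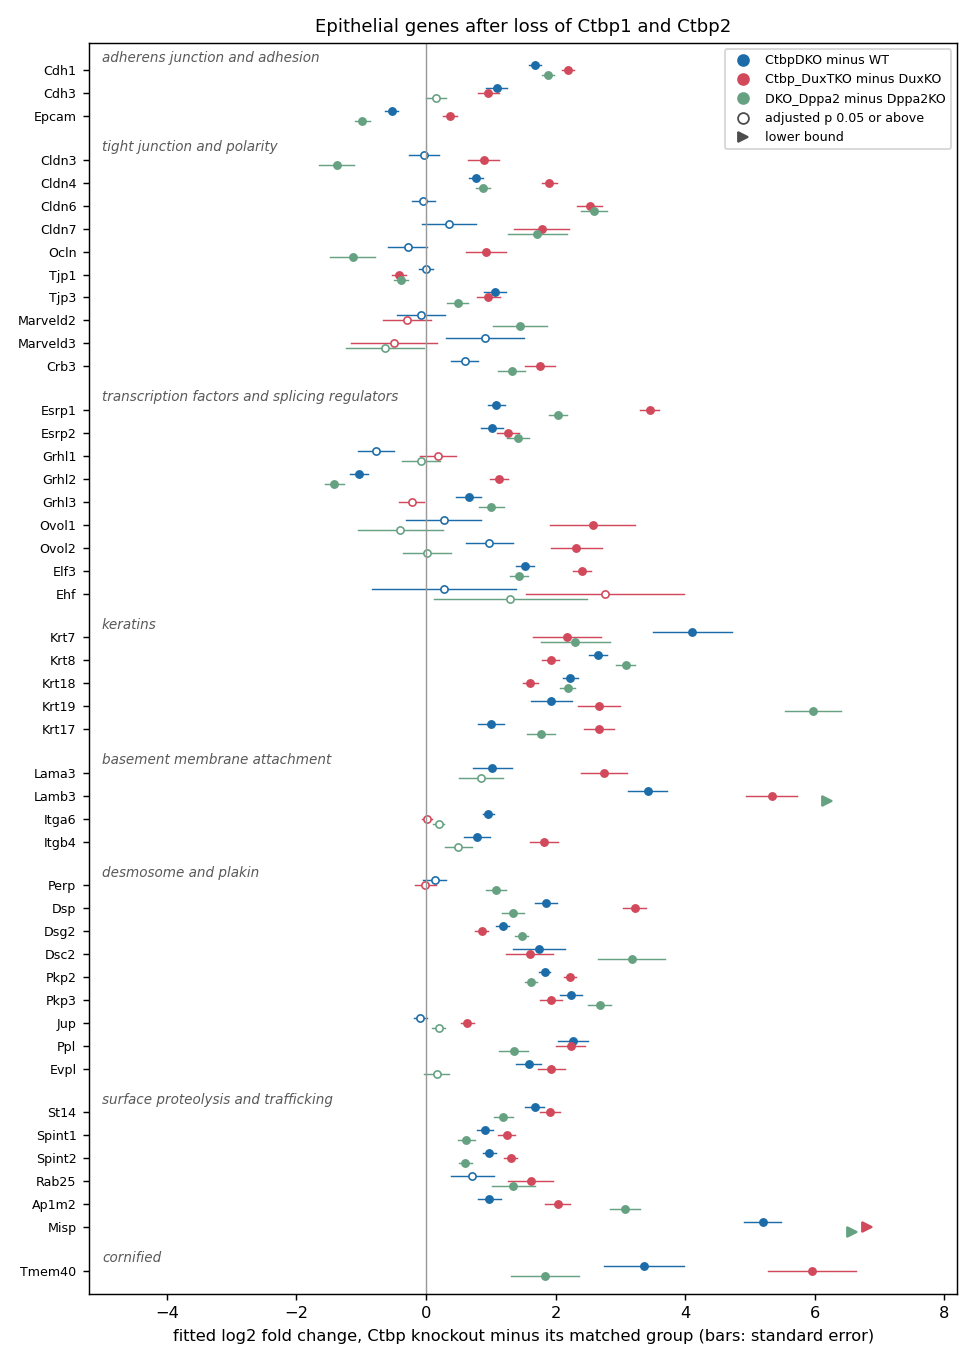
Fitted log2 fold change (points, with standard error as bars) of the tested members by role on 3 backgrounds of Ctbp loss; filled points have an adjusted p under 0.05, triangles are lower bounds against groups at the floor of 3 counts, and Sprr2a1 and Sprr2a2, near 0 counts, are left out. Keratins lie right of 0 on every background, whereas Epcam, Cldn3, Ocln and Grhl2 lie on both sides.

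All 5 keratins rose on all 3 backgrounds, beside 5.72% of all genes. Krt8, the type II keratin of simple epithelia, had 19.8 and 16.0 CPM (counts per 1000000 counts of the library, scaled by edgeR's TMM library factors) in WT, 117 and 109 in CtbpDKO, 31.1 and 27.9 in DuxKO, 113 and 111 in Ctbp_DuxTKO, 14.2 and 10.6 in Dppa2KO, and 102 and 108 in DKO_Dppa2. The 6 libraries without Ctbp lay within 102 to 117 CPM and the other 6 at or below 31.1, so the groups did not overlap. The log2 fold change was 2.66 ± 0.14 (SE) in CtbpDKO (edgeR, Benjamini-Hochberg adjusted p = 1.87e-08), 1.93 in Ctbp_DuxTKO and 3.08 in DKO_Dppa2. Krt18, its type I partner, lies beside Krt8 on chromosome 15 (102028216 to 102032026, after Krt8 at 101996711 to 102004342). Krt18 went from 6.07 and 6.36 CPM in WT to 31.2 and 27.0 in CtbpDKO, a log2 fold change of 2.23 ± 0.12 (edgeR, Benjamini-Hochberg adjusted p = 2.12e-08), with 1.61 and 2.18 on the other backgrounds. No library with Ctbp reached the lowest of those without it.

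Krt7 and Krt19 are other keratins of simple epithelia, and Krt7 was near the floor in WT. Krt7 had 4 and 2 counts in WT and 71 and 50 in CtbpDKO, a log2 fold change of 4.11 ± 0.61 (edgeR, Benjamini-Hochberg adjusted p = 0.000224). On the other backgrounds it changed by 2.18 and 2.31, the last being 2.99 without Dppa2KO replicate 1. Krt19 had 1.14 and 0.782 CPM in WT, 4.15 and 3.21 in CtbpDKO, 1.02 and 0.731 in DuxKO, 4.68 and 6.42 in Ctbp_DuxTKO, 0.0551 and 0.142 in Dppa2KO, and 5.36 and 7.42 in DKO_Dppa2. The Dppa2KO libraries were the lowest, at 2 and 5 counts. The log2 fold change of Krt19 was 1.93, 2.66 and 5.97 on the 3 backgrounds, the last being 6.75 without Dppa2KO replicate 2. Krt17, a keratin of stratified and stressed epithelium, was at 6.0 and 6.16 CPM in WT and 11.9 and 12.4 in CtbpDKO, a log2 fold change of 1.00 ± 0.20, and rose by 2.67 and 1.78 on the other backgrounds.

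Among genes of basement membrane attachment, 4 of 4 rose in CtbpDKO, 3 of 4 in Ctbp_DuxTKO and 1 of 4 in DKO_Dppa2. Of all genes, 14.7%, 21.4% and 15.2% rose on these backgrounds. Lamb3, the laminin beta chain of epithelial basement membranes, had 28 and 16 counts in WT against 284 and 252 in CtbpDKO, 4 and 5 in DuxKO against 151 and 176 in Ctbp_DuxTKO, and 1 and 0 in Dppa2KO against 141 and 123 in DKO_Dppa2. The 6 libraries without Ctbp held at least 123 counts and the others at most 28. The log2 fold change of Lamb3 was 3.42 ± 0.30 in CtbpDKO (edgeR, Benjamini-Hochberg adjusted p = 2.26e-06) and 5.33 in Ctbp_DuxTKO, and in DKO_Dppa2 it was at least 73.2-fold higher than the floor of 3 counts per library. The fitted value there, 8.40, was 10.47 and 7.59 without Dppa2KO replicate 1 and 2. Lama3, the alpha chain that pairs with it, had 2.48 and 2.44 CPM in WT and 5.03 and 5.0 in CtbpDKO (log2 fold change 1.02), but lost its call without any one of these 4 libraries (edgeR, Benjamini-Hochberg adjusted p of 0.0814 to 0.111); in Ctbp_DuxTKO it rose by 2.75. Itgb4, the beta 4 integrin of hemidesmosomes, changed by 0.79 in CtbpDKO, and the edgeR, Benjamini-Hochberg adjusted p was 0.0874 without WT replicate 1 and 0.0901 without CtbpDKO replicate 2. Its increase in Ctbp_DuxTKO was 1.82. Itga6, its alpha 6 partner, went from 117 and 114 CPM in WT to 222 and 227 in CtbpDKO, a log2 fold change of 0.96 ± 0.08, while the values on the other backgrounds were 0.01 and 0.19 and passed no test.

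Desmosomes are spot junctions that tie keratin filaments together across cells, and 7, 8 and 7 of the 9 tested desmosome and plakin genes rose on the 3 backgrounds, with 0 lower. Shares over all genes on these backgrounds were 14.7%, 21.4% and 15.2% higher and 11.4%, 19.6% and 15.2% lower. Dsp, the plakin that links desmosomes to keratins, had 11 and 13.6 CPM in WT, 45.6 and 43.3 in CtbpDKO, 11.7 and 10.9 in DuxKO, 105 and 105 in Ctbp_DuxTKO, 11.6 and 16.1 in Dppa2KO, and 40.9 and 29.3 in DKO_Dppa2. The Ctbp_DuxTKO libraries stood above all others. The log2 fold changes of Dsp were 1.85 ± 0.17 (edgeR, Benjamini-Hochberg adjusted p = 3.62e-06), 3.22 and 1.34. Pkp2 and Pkp3, armadillo proteins of the desmosomal plaque, rose by 1.83 and 2.24 in CtbpDKO, 2.22 and 1.93 in Ctbp_DuxTKO, and 1.62 and 2.68 in DKO_Dppa2. Pkp3 went from 3.69 and 3.23 CPM in WT to 16.9 and 15.8 in CtbpDKO. The desmosomal cadherin Dsg2 rose by 1.19, 0.86 and 1.48. Dsc2, the other desmosomal cadherin tested, rose by 1.74, 1.60 and 3.17, and the first of these was 1.40 without WT replicate 2 (edgeR, Benjamini-Hochberg adjusted p = 0.0685).

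Of the plakins of the cornified envelope, Ppl rose on all 3 backgrounds and Evpl on 2. Ppl (periplakin) had 1.17 and 1.70 CPM in WT and 7.01 and 6.82 in CtbpDKO, a log2 fold change of 2.26 ± 0.23, with 2.23 and 1.35 on the other backgrounds. Evpl (envoplakin) rose by 1.59 in CtbpDKO and 1.94 in Ctbp_DuxTKO and stood at 0.17 in DKO_Dppa2; the difference between the Dppa2 and WT backgrounds was itself past the threshold (-1.42, edgeR interaction, Benjamini-Hochberg adjusted p = 0.00729). Jup, plakoglobin, which serves both desmosomes and adherens junctions, was at 110 and 128 CPM in WT and 110 and 114 in CtbpDKO and passed the test only in Ctbp_DuxTKO (0.64). Perp, a membrane protein of desmosomes, passed only in DKO_Dppa2 (1.08). Pkp1, untested for low counts, was at 0 in the WT, DuxKO and Dppa2KO libraries, at 8 in each CtbpDKO and Ctbp_DuxTKO library, and at 4 and 0 in DKO_Dppa2.

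Of the adhesion genes, Cdh1 rose on every background. Cdh1 encodes E-cadherin, the adherens junction cadherin of epithelia and of embryonic stem cells. It had 145 and 148 CPM in WT, 105 and 98.6 in DuxKO, 106 and 98.2 in Dppa2KO, 468 and 472 in CtbpDKO, 428 and 500 in Ctbp_DuxTKO, and 376 and 375 in DKO_Dppa2. The 6 libraries without Ctbp lay at 375 CPM or more and the others at 148 or less. The log2 fold change of Cdh1 was 1.69 ± 0.09 in CtbpDKO (edgeR, Benjamini-Hochberg adjusted p = 2.93e-08), a 3.21-fold difference, and 2.19 and 1.88 on the other backgrounds. Cdh3, P-cadherin, lies beside Cdh1 on chromosome 8 and rose by 1.09 and 0.96 on the first 2 backgrounds, with 0.15 in DKO_Dppa2. Epcam, a homophilic adhesion molecule of epithelia and stem cells, went the other way: it had 51.4 and 45.1 CPM in WT and 36.4 and 30.4 in CtbpDKO, and fell by 0.53 there and by 0.98 in DKO_Dppa2. In Ctbp_DuxTKO Epcam was called higher by 0.37, a call lost without any one of the 4 libraries compared (edgeR, Benjamini-Hochberg adjusted p of 0.0526 to 0.1). Genes of chromosome 8, which carries Cdh1, Cdh3 and Esrp2, had a median log2 fold change of 0.35 in CtbpDKO, -0.136 in Ctbp_DuxTKO and 0.50 in DKO_Dppa2. In comparisons described below, this median was 0.375 and 0.336 in DuxKO of the genotype and Pramel7 tables. It was -0.476 in the interaction of Ctbp and Dux loss and -0.508 in that of Pramel7 overexpression and Dux loss. The part of these shifts in the values of Cdh1, Cdh3 and Esrp2 was not tested.

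**Figure D2:**
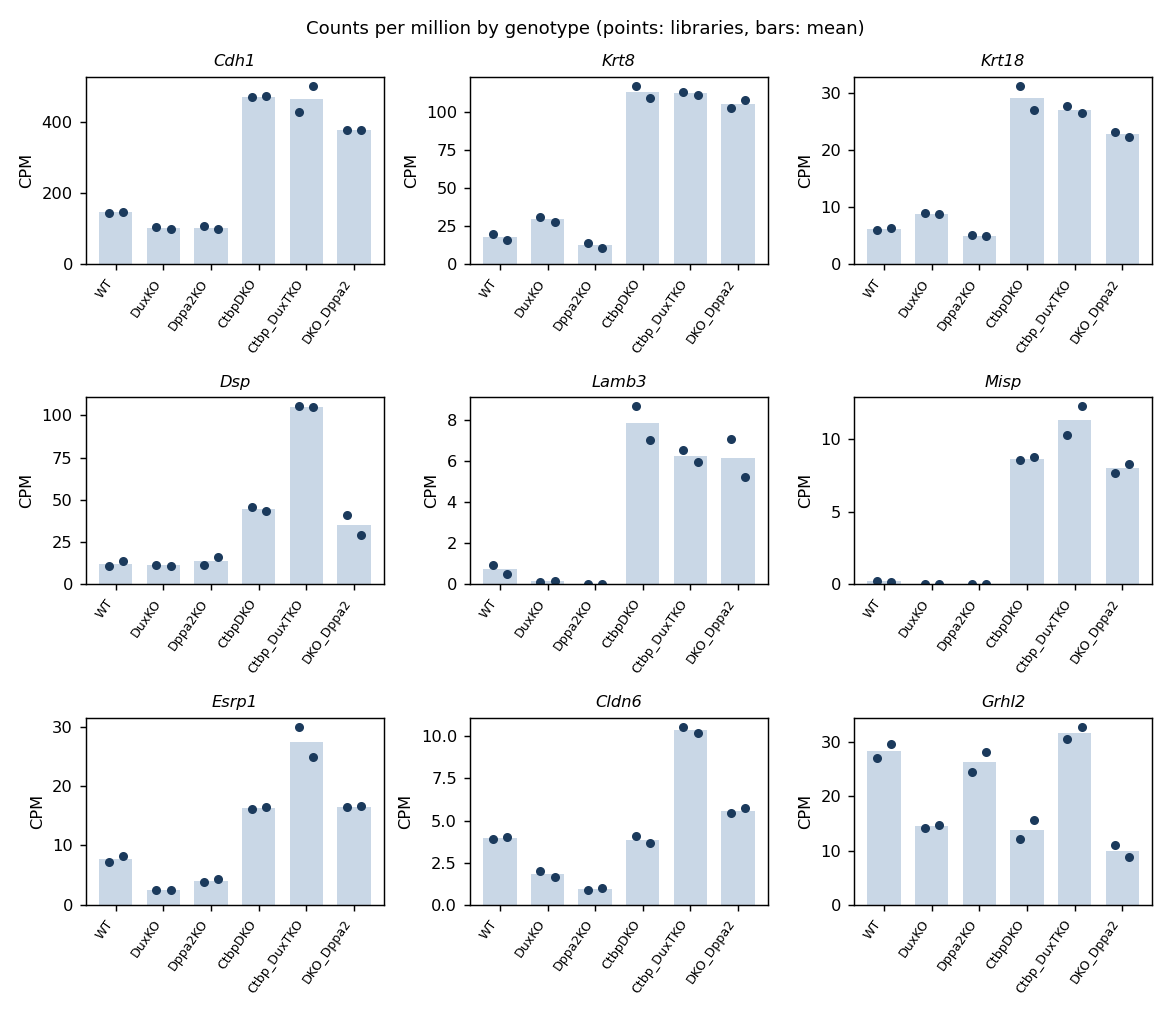
CPM in each library of the 6 genotype groups (points; the bar is the mean of 2) for 9 members. Cdh1, Krt8, Krt18, Dsp, Lamb3, Misp and Esrp1 are higher in every library without Ctbp than in every library with it, while Cldn6 and Grhl2 are not.

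Tight junction and polarity genes were mixed: 2 of 10 rose in CtbpDKO, 7 rose and 1 fell in Ctbp_DuxTKO, and 6 rose and 3 fell in DKO_Dppa2. Of all genes, 14.7%, 21.4% and 15.2% rose and 11.4%, 19.6% and 15.2% fell on these backgrounds. The 2 of 10 in CtbpDKO are near that share. Cldn4 and Tjp3 rose on all 3 backgrounds. Cldn4, a claudin of tight epithelia, had 22.6 and 23.7 CPM in WT and 40.3 and 38.7 in CtbpDKO, a log2 fold change of 0.77 ± 0.11, and rose by 1.90 and 0.88 on the other backgrounds. Tjp3, the scaffold ZO-3, had 7.62 and 8.25 CPM in WT and 18.2 and 15.0 in CtbpDKO (1.06 ± 0.17); it changed by 0.96 in Ctbp_DuxTKO and 0.49 in DKO_Dppa2, the last being 0.27 to 0.51 and uncalled without Dppa2KO replicate 2 or either DKO_Dppa2 library. Tjp1, the scaffold ZO-1, had a log2 fold change of 0.00 in CtbpDKO and fell by 0.42 and 0.39 on the other backgrounds. Crb3, the epithelial Crumbs polarity protein, stood at 0.60 in CtbpDKO (edgeR, Benjamini-Hochberg adjusted p = 0.0518) and rose by 1.76 and 1.32 elsewhere.

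Cldn6, a claudin of early embryonic epithelia, differed between backgrounds. It had 3.89 and 4.04 CPM in WT and 4.06 and 3.66 in CtbpDKO, 1.97 and 1.63 in DuxKO and 10.6 and 10.2 in Ctbp_DuxTKO, and 0.853 and 0.993 in Dppa2KO and 5.46 and 5.72 in DKO_Dppa2. WT and CtbpDKO overlapped, whereas the other 2 pairs of groups were far apart. The log2 fold changes were -0.04, 2.52 and 2.6, and both differences from the WT background passed the test: 2.57 ± 0.26 with Dux loss (edgeR interaction, Benjamini-Hochberg adjusted p = 2.69e-05) and 2.63 ± 0.27 with Dppa2 loss (edgeR interaction, Benjamini-Hochberg adjusted p = 0.000156). Cldn7 stood at 0.35 in CtbpDKO and rose by 1.79 and 1.72 elsewhere; without a single library these became 1.29 to 1.41 in Ctbp_DuxTKO (edgeR, Benjamini-Hochberg adjusted p = 0.0503 without DuxKO replicate 1 and 0.0608 without Ctbp_DuxTKO replicate 1) and 1.48 to 1.56 in DKO_Dppa2 (0.0767 without Dppa2KO replicate 1, 0.0578 without DKO_Dppa2 replicate 1). Cldn3 rose by 0.89 in Ctbp_DuxTKO and fell by 1.38 in DKO_Dppa2. Ocln, occludin, rose by 0.93 in Ctbp_DuxTKO and was called lower by 1.13 in DKO_Dppa2. That call of Ocln was lost without either Dppa2KO library or without DKO_Dppa2 replicate 1 (edgeR, Benjamini-Hochberg adjusted p of 0.0652 to 0.202), and the fall was 1.80 without DKO_Dppa2 replicate 2. Marveld2 rose by 1.45 in DKO_Dppa2 alone of the 3 tests, and Marveld3 had 4 to 22 counts per library and passed none.

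Regulators of epithelial identity were led by the splicing factors Esrp1 and Esrp2 and the ETS factor Elf3. Esrp1, which directs epithelial splice forms, had 7.21 and 8.21 CPM in WT, 16.1 and 16.5 in CtbpDKO, 2.45 and 2.56 in DuxKO, 30.0 and 24.9 in Ctbp_DuxTKO, 3.83 and 4.25 in Dppa2KO, and 16.5 and 16.6 in DKO_Dppa2. Every library without Ctbp was at least as high as 16.1 CPM, and the DuxKO libraries were the lowest. Its log2 fold changes were 1.08 ± 0.13 (edgeR, Benjamini-Hochberg adjusted p = 3.82e-05), 3.45 and 2.03, and the difference between the Dux and WT backgrounds was 2.37 ± 0.19 (edgeR interaction, Benjamini-Hochberg adjusted p = 5.09e-06). Esrp2 rose by 1.02, 1.26 and 1.42. Elf3, an epithelial ETS transcription factor, went from 8.99 and 7.63 CPM in WT to 24.6 and 23.4 in CtbpDKO and rose by 1.53, 2.41 and 1.44.

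Grhl2, a grainyhead-like factor that activates Cdh1 and claudin genes in epithelia, did not follow them. It had 27.1 and 29.7 CPM in WT and 12.1 and 15.6 in CtbpDKO, 14.2 and 14.8 in DuxKO and 30.6 and 32.9 in Ctbp_DuxTKO, and 24.5 and 28.2 in Dppa2KO and 11 and 8.77 in DKO_Dppa2. Each pair of groups was separate, with the direction reversed on the Dux background. Grhl2 fell by 1.04 in CtbpDKO (edgeR, Benjamini-Hochberg adjusted p = 0.00011) and by 1.42 in DKO_Dppa2 and rose by 1.13 in Ctbp_DuxTKO; the difference between the Dux and WT backgrounds was 2.17 ± 0.20 (edgeR interaction, Benjamini-Hochberg adjusted p = 1.44e-05). Grhl3 was called higher by 0.66 in CtbpDKO, where the edgeR, Benjamini-Hochberg adjusted p was 0.15 without WT replicate 1 and 0.16 without CtbpDKO replicate 1, and rose by 1.01 in DKO_Dppa2. Ovol1 and Ovol2, zinc finger repressors that hold cells epithelial, rose in Ctbp_DuxTKO, by 2.57 and 2.32, and neither passed the test of a difference between the Dux and WT backgrounds. Grhl1 stood at -0.77 in CtbpDKO (edgeR, Benjamini-Hochberg adjusted p = 0.0601), and Ehf had at most 18 counts in any genotype library.

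The group of surface proteolysis and trafficking genes rose in 5 of 6, 6 of 6 and 6 of 6 tests, beside 14.7%, 21.4% and 15.2% of all genes. Misp, an actin-binding protein of the cortex and of spindle positioning, lies on chromosome 10 (79821019 to 79830452) and had the largest log2 fold change of the 49 tested members in CtbpDKO. Misp had 8 and 6 counts in WT and 279 and 312 in CtbpDKO, 1 and 0 in DuxKO and 237 and 360 in Ctbp_DuxTKO, and 0 and 0 in Dppa2KO and 153 and 195 in DKO_Dppa2. No library with Ctbp passed 8 counts and no library without it was under 153. The log2 fold change was 5.19 ± 0.28 in CtbpDKO (edgeR, Benjamini-Hochberg adjusted p = 6.79e-08); against the floor of 3 counts per library, Misp was at least 112-fold higher in Ctbp_DuxTKO and at least 95-fold higher in DKO_Dppa2. The fitted value in Ctbp_DuxTKO, 9.07, rests on that floor and was 11.38 and 8.18 without DuxKO replicate 1 and 2.

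St14, the membrane protease matriptase, rose by 1.67, 1.91 and 1.19, and its inhibitors Spint1 and Spint2 rose with it, by 0.91, 1.25 and 0.62 and by 0.98, 1.31 and 0.60. St14 went from 10.3 and 9.39 CPM in WT to 36.1 and 26.7 in CtbpDKO. Ap1m2, the epithelial subunit of the AP-1 sorting adaptor, had 5.43 and 4.89 CPM in WT and 11.1 and 9.22 in CtbpDKO, 2.69 and 2.89 in DuxKO and 12.7 and 10.2 in Ctbp_DuxTKO, and 0.55 and 0.823 in Dppa2KO and 5.71 and 5.80 in DKO_Dppa2. Its increases were 0.98 ± 0.18, 2.03 and 3.06, and the DKO_Dppa2 libraries only just passed those of WT. Rab25, an epithelial recycling GTPase, stood at 0.71 in CtbpDKO and rose by 1.61 and 1.35.

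Of the cornified genes, Tmem40 rose on all 3 backgrounds from low counts. Tmem40, a transmembrane protein of epithelia, had 14 and 0 counts in WT and 72 and 95 in CtbpDKO, 4 and 2 in DuxKO and 160 and 181 in Ctbp_DuxTKO, and 21 and 32 in Dppa2KO and 52 and 64 in DKO_Dppa2. The 2 WT libraries differed, and the log2 fold change in CtbpDKO, 3.36 ± 0.62, became 9.17 without WT replicate 1 and 2.34 without WT replicate 2. In Ctbp_DuxTKO the increase was 5.96; in DKO_Dppa2 it was 1.84, with an edgeR, Benjamini-Hochberg adjusted p of 0.104 without Dppa2KO replicate 1 and 0.0594 without DKO_Dppa2 replicate 2. Sprr2a1 and Sprr2a2, small proline-rich precursors of the cornified envelope, had equal counts in 11 of 12 genotype libraries and differed by at most 1, so the copies cannot be told apart. Sprr2a1 was at 0 or 3 counts in WT, DuxKO and CtbpDKO, at 22 and 72 in Ctbp_DuxTKO, and at 0 in DKO_Dppa2. It was at least 16.8-fold higher in Ctbp_DuxTKO than the floor, a call lost without Ctbp_DuxTKO replicate 2 (edgeR, Benjamini-Hochberg adjusted p = 0.0706); the fitted 4.97 was 4.04 and 8.65 without DuxKO replicate 1 and 2.

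Loss of Dux or Dppa2 in cells with intact Ctbp was compared with the same WT libraries, so these results are set side by side and share their controls. In DuxKO, 5 members rose and 15 fell (7.94% and 9.56% of all genes), with a median of -0.43; in Dppa2KO, 7 rose and 14 fell (7.67% and 8.69%), with a median of -0.17 (-0.24 with genes at the floor set to their bound). Among members with counts in every library, the largest falls in DuxKO were those of Lamb3 (-2.24), Krt17 (-2.0), Lama3 (-1.64) and Esrp1 (-1.62), while Perp rose by 1.24, Krt8 by 0.72, Itga6 by 0.56, Krt18 by 0.51 and Tjp1 by 0.36. The calls of Lamb3 (edgeR, Benjamini-Hochberg adjusted p = 0.0643 without WT replicate 1, 0.0537 without DuxKO replicate 1) and Lama3 (0.0592 without DuxKO replicate 2) depended on single libraries, and that of Krt18 was lost without WT replicate 1 or either DuxKO library (0.0505 to 0.0709). In Dppa2KO the falls included Lamb3 (at least 8.71-fold lower; fitted -5.33, and -7.42 and -4.52 without Dppa2KO replicate 1 and 2), Krt19 (-3.24, and -4.02 without Dppa2KO replicate 2), Ap1m2 (-2.91) and Cldn6 (-2.10). The 7 called higher there were Ppl (0.76), Elf3 (0.68), Perp (0.65), St14 (0.54), Pkp2 (0.47), Spint2 (0.34) and Itga6 (0.30). Fewer remained without a single library, from 1 without WT replicate 2 to 5 without Dppa2KO replicate 2; the calls of Ppl and St14 were lost without any one of the 4 (edgeR, Benjamini-Hochberg adjusted p up to 0.283), that of Perp without WT replicate 2 or either Dppa2KO library, and that of Elf3 without WT replicate 2 (0.0712). Misp was lower than in WT in both knockouts, at 1 and 0 and at 0 and 0 counts against 8 and 6, values near the floor; its call in DuxKO was lost without WT replicate 1 or DuxKO replicate 2 (edgeR, Benjamini-Hochberg adjusted p = 0.0517 and 0.102), and the fitted -3.49 was -5.81 without DuxKO replicate 1.

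Whether Dux or Dppa2 loss altered the response to Ctbp loss was tested as an interaction. With Dux loss the response was higher for 17 members and lower for 4 (9.82% and 9.64% of all genes), with a median difference of 0.73; with Dppa2 loss it was higher for 7 and lower for 4 (3.23% and 5% of all genes), with a median of -0.09. In both interactions the knockout controls themselves differ from WT, so a higher response can come with a lower starting level. Misp, Cldn6, Esrp1 and Grhl2 had the largest fitted differences with Dux loss, at 3.87 ± 0.80, 2.57, 2.37 and 2.17. Itga6 (-0.95), Grhl3 (-0.88), Krt8 (-0.73) and Krt18 (-0.62) were the 4 with a lower response. With Dppa2 loss the largest fitted values were Misp (5.70 ± 1.05), Lamb3 (4.97), Krt19 (4.04) and Cldn6 (2.63), and the lower ones were Evpl (-1.42), Cldn3 (-1.34), Cdh3 (-0.94) and Itga6 (-0.77). Without a single library, 1 to 4 members had a lower response with Dux loss (1 without CtbpDKO replicate 1) and 2 or 3 with Dppa2 loss. The order rests on groups near 0 counts: with a prior count of 2, Misp was 2.21 with Dux loss and 2.04 with Dppa2 loss, and Lamb3 2.94, while over all alternatives run Cldn6 stayed between 2.44 and 2.70 with Dux loss and between 2.53 and 2.75 with Dppa2 loss, and Krt19 between 3.43 and 4.82. Values for such genes also moved with single libraries: Misp with Dux loss was 6.19 without DuxKO replicate 1 and 3.02 without DuxKO replicate 2, and with Dppa2 loss Lamb3 was 7.07 and 4.17 without Dppa2KO replicate 1 and 2, and Krt19 4.82 without Dppa2KO replicate 2.

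Among cells without Ctbp, 10 members were higher and 4 lower with additional Dux loss (3.6% and 4.54% of all genes), and 2 were higher and 14 lower with additional Dppa2 loss (5.75% and 9.67%). The 10 include both Sprr2a1 and Sprr2a2, copies that cannot be told apart and are not independent. Cldn6 (1.43), Dsp (1.24), Grhl2 (1.20) and Perp (1.09) were higher in Ctbp_DuxTKO than in CtbpDKO. The 4 called lower, Pkp3 (-0.62), Cdh3 (-0.56), Dsg2 (-0.45) and Itga6 (-0.39), each lost the call in at least 3 of the 4 fits without a single library (edgeR, Benjamini-Hochberg adjusted p up to 0.258). Sprr2a1 was called higher, at 22 and 72 counts against 3 and 3, but not without any one library (edgeR, Benjamini-Hochberg adjusted p of 0.0781 to 0.229). In DKO_Dppa2, Perp was higher than in CtbpDKO by 1.59 and Elf3 by 0.58, the latter not without CtbpDKO replicate 2 (edgeR, Benjamini-Hochberg adjusted p = 0.0719) or DKO_Dppa2 replicate 1 (0.113). Cldn3 (-1.40), Ocln (-1.32), Itgb4 (-1.0) and Evpl (-0.99) had the largest falls. Of these, Ocln was -0.98 without CtbpDKO replicate 2 and -0.90 without DKO_Dppa2 replicate 1 (edgeR, Benjamini-Hochberg adjusted p = 0.176 and 0.159) and -1.98 without DKO_Dppa2 replicate 2. Itgb4 was lost without CtbpDKO replicate 2 or DKO_Dppa2 replicate 2 (edgeR, Benjamini-Hochberg adjusted p = 0.059 and 0.0731) and Evpl without CtbpDKO replicate 1 (0.0501). The 14 lower calls became 6 without CtbpDKO replicate 2, and no fit without a single library gave more than 8.

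In the time course, Ctbp2 was high at days 3 and 9 and low at days 0, 12 and 18, and part of the set moved against it. From day 0 to day 3, 16 of 48 tested members fell and 1 rose, beside 2.59% of all genes that fell and 2.41% that rose, with a median of -0.47. Misp had 7.02 and 8.04 CPM at day 0, 1.96 and 1.68 at day 3, 1.46 and 1.31 at day 9, 3.82 and 6.59 at day 12, and 10.8 and 10.4 at day 18. All 4 libraries of days 3 and 9 lay below all others. Misp fell by 2.05 ± 0.27 to day 3 (edgeR, Benjamini-Hochberg adjusted p = 0.000819) and rose by 1.92 ± 0.28 from day 9 to day 12. Krt8 had 98.6 and 108 CPM at day 0, 47.9 and 42.6 at day 3, 73.3 and 80.5 at day 9, 130 and 117 at day 12, and 140 and 149 at day 18. The day 3 libraries of Krt8 were the lowest, and day 9 lay between day 3 and day 0. Krt8 fell by 1.19 ± 0.11 to day 3 (edgeR, Benjamini-Hochberg adjusted p = 3.47e-05).

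Esrp1 fell by 1.20 to day 3, from 23.1 and 24.1 CPM to 8.70 and 11.9, and Krt17 by 1.26, from 13.6 and 10.6 to 5.18 and 4.95. Krt18 fell by 0.80, from 25.2 and 26.9 CPM to 14.2 and 15.8. These calls, with those of Misp and Krt8, held without any single library. The others that fell were Cldn4, Cldn7, Tjp3, Crb3, Elf3, Dsp, Pkp3, Jup, St14, Rab25 and Ap1m2, by 0.62 to 1.88. The total of 16 became 8 without day 0 replicate 2 and 7 without day 3 replicate 2. Cdh1 passed no test in the time course: it had 381 and 451 CPM at day 0, 351 and 325 at day 3, 346 and 380 at day 9, 423 and 431 at day 12, and 503 and 446 at day 18. Lamb3 likewise passed none, at 9.76 and 11.4 CPM on day 0 and 7.29 and 5.61 on day 3.

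Cdh3 was the member that rose at day 3, and it followed Ctbp2 rather than opposing it. Cdh3 had 38.9 and 41.6 CPM at day 0, 244 and 239 at day 3, 325 and 307 at day 9, 49.96 and 47.0 at day 12, and 46.4 and 42.4 at day 18. The day 3 and day 9 libraries were separate from all others. The log2 fold changes were 2.58 ± 0.11 to day 3 (edgeR, Benjamini-Hochberg adjusted p = 1.54e-08) and -2.71 ± 0.11 from day 9 to day 12 (edgeR, Benjamini-Hochberg adjusted p = 1.13e-08). In the genotype table Cdh3 was instead lower with Ctbp, at 15.0 and 15.8 CPM in WT against 31.5 and 34.2 in CtbpDKO. The labels do not state what was given to these cells or when, and the part of any treatment in the Cdh3 values was not tested.

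**Figure D3:**
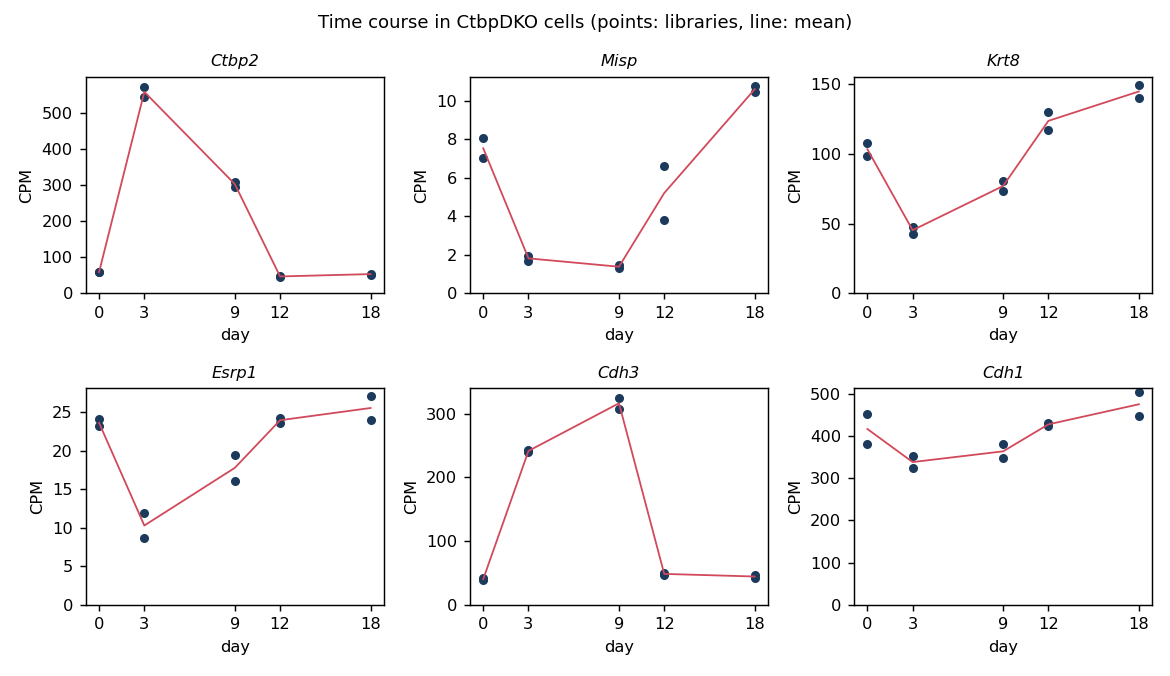
CPM in each library by day (points; the line joins the means of 2 libraries) for Ctbp2 and 5 members of the CtbpDKO time course. Misp, Krt8 and Esrp1 are lowest at day 3 or 9, when Ctbp2 is high, Cdh3 is highest then, and Cdh1 shows no call at any step.

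From day 3 to day 9, while Ctbp2 stayed high, 8 members rose and 0 fell (0.524% and 0.592% of all genes), with a median of 0.42; 1 to 4 members were higher when any single library of either day was left out. Those with the largest changes were Ap1m2 (1.19), Perp (0.96), Esrp1 (0.79) and Krt18 (0.79). Each of these 4 lost its call without day 3 replicate 1 (edgeR, Benjamini-Hochberg adjusted p = 0.134, 0.167, 0.268 and 0.0912). A comparison of day 9 with day 0, added after the data had been seen, had 3 members higher and 6 lower (3.6% and 3.73% of all genes). Cdh3 (2.97) and Dsg2 (0.62) were higher and Misp (-2.43) lower in every fit without a library. Perp (0.60), Tmem40 (-1.81), Krt17 (-1.03), Elf3 (-0.49), Krt8 (-0.42) and Pkp3 (-0.45) made up the others; without day 0 replicate 1, for instance, the edgeR, Benjamini-Hochberg adjusted p was 0.105 for Perp, 0.106 for Tmem40, 0.0501 for Krt17, 0.137 for Elf3 and 0.0667 for Krt8, and no fit without a library kept more than 2 higher and 2 lower calls.

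From day 9 to day 12, with Ctbp2 counts low again, 6 members rose and 2 fell (1.87% and 1.97% of all genes), with a median of 0.26. Besides Misp, those that rose were Krt8 (0.68), Elf3 (0.59), Pkp3 (0.54), Pkp2 (0.50) and Jup (0.47), and those that fell were Cdh3 and Dsg2 (-0.38). Only the calls of Misp and Cdh3 held without any single library; the number higher was then 1 or 2 in each fit (without day 9 replicate 1, edgeR, Benjamini-Hochberg adjusted p = 0.0549 for Krt8, 0.167 for Elf3, 0.15 for Pkp3 and 0.126 for Dsg2). Elf3, Krt8, Pkp3, Jup and Misp both fell to day 3 and rose from day 9 to day 12, in comparisons that share no library: 5 of the 16 that fell and 5 of the 6 that rose. Over all genes tested, 1.08% did both, 41.8% of those that fell and 57.9% of those that rose. From day 12 to day 18, Dsp rose by 0.61 and no member fell (0.64% and 0.18% of all genes). Against day 0, day 18 differed by a call only for Dsp (0.65; 0.359% of all genes higher, 0.155% lower, 0 members lower), and leaving out either day 0 library or day 18 replicate 1 ended that call (edgeR, Benjamini-Hochberg adjusted p of 0.0842 to 0.339). The step from day 12 was likewise lost for Dsp without either day 12 library or day 18 replicate 1 (edgeR, Benjamini-Hochberg adjusted p of 0.262 to 0.329).

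The genotype and time course tables share no library, and 12 members both rose in CtbpDKO and fell at day 3, that is 12 of the 30 that rose and 12 of the 16 that fell: Cldn4, Tjp3, Esrp1, Elf3, Krt8, Krt18, Krt17, Dsp, Pkp3, St14, Ap1m2 and Misp. Over all genes tested in both tables, 1.72% did both, 11.3% of those that rose and 64.8% of those that fell. Of the 12, the day 3 calls of Misp, Krt8, Krt18, Krt17 and Esrp1 held without any single library and those of the other 7 did not. The other 18 that rose in CtbpDKO, among them Cdh1, Krt7, Krt19, Lamb3, Dsg2 and Pkp2, did not pass the test at day 3, which does not show that they were level. Summed over the 51 members, the CPM was 785 to 816 in WT and 1657 to 1683 in CtbpDKO, and 1607 to 1768 at day 0, 1507 to 1597 at day 3, 1850 to 1909 at day 9, 1823 to 1845 at day 12 and 1893 to 2096 at day 18. The sum thus was not lower at day 9, with Ctbp2 high, than at day 0; Cdh3 alone had 325 and 307 CPM at day 9 against 38.9 and 41.6 at day 0.

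In the Pramel7 table more members fell than rose against WT in each of P7OE, P7KO and DuxKO. All comparisons with WT there share the same 4 libraries. Of 48 members tested in both tables, 32 had these WT libraries above those of the genotype table and 2 had them below. The part of this WT level in the falls was not tested. Pramel7 itself was near the floor in WT and in P7KO, so its counts do not show the knockout. In P7OE, 24 of 49 fell and 5 rose (8.9% and 11% of all genes), with a median of -0.85; in P7KO, 27 fell and 2 rose (5.55% and 3.93%), median -1.34; in DuxKO, 33 fell and 2 rose (8.91% and 7.76%), median -1.22. These counts depended on single libraries: 15 and 14 fell in P7OE without P7OE replicate 1 and 2, 15 and 17 in P7KO without P7KO replicate 1 and 2, and 21 in DuxKO without DuxKO replicate 4. The 4 WT libraries also differed among themselves. Krt8 had 126 and 139 CPM in WT replicates 3 and 4 and 78.7 and 51.0 in replicates 5 and 6, Dsp ran from 9.16 to 32.9, and Tjp1 had 27.6, 34.7, 61.5 and 80.6 in replicates 3 to 6.

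Cdh1 had 177, 183, 235 and 275 CPM in the WT libraries, 48.3 and 47.0 in DuxKO, 100 and 106 in P7KO, 116 and 132 in P7OE, and 144 and 173 in DuxKO_P7OE. Every altered library lay below every WT library. Cdh1 fell by 2.19 in DuxKO (edgeR, Benjamini-Hochberg adjusted p = 9.92e-06), by 1.07 in P7KO and by 0.81 in P7OE, the last being 0.73 lower without P7OE replicate 1 (edgeR, Benjamini-Hochberg adjusted p = 0.0871). Ap1m2 had 27.4, 32.0, 22.9 and 19.7 CPM in WT and 2.12 to 4.21 in all 8 other libraries. The groups were far apart, and Ap1m2 fell by 3.00 in P7OE, 3.23 in DuxKO and 2.69 in P7KO. Krt17 had 18.2, 16.1, 12.4 and 12.3 CPM in WT, 7.61 and 7.13 in DuxKO_P7OE, 4.36 and 3.17 in P7OE, and 1.34 and 1.00 in DuxKO; it fell by 1.96 in P7OE and 3.68 in DuxKO, and by 0.73 in P7KO, a call lost without WT replicate 3 or 4 or either P7KO library (edgeR, Benjamini-Hochberg adjusted p of 0.08 to 0.253). Esrp1 fell by 1.78, 3.52 and 1.49 in P7OE, DuxKO and P7KO.

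Against the shared WT libraries, 5 of 5 keratins fell in both P7OE and P7KO, beside 8.9% and 5.55% of all genes. Of the 4 cornified genes 3 fell in P7OE and 4 in P7KO, while Tmem40 rose in P7OE. The other 3 cornified genes are the near-identical copies Sprr2a1, Sprr2a2 and Sprr2a3, which may share reads. In DuxKO of this table all keratins but Krt7 and all cornified genes were called lower too, beside 8.91% of all genes. The P7KO calls of Krt17 and Sprr2a3 and the DuxKO calls of Krt8 and Krt18 did not hold without every single library. Krt8 fell by 1.72 in P7OE, where it had 31.5 and 28.3 CPM, and by 2.44 in P7KO, with 17.7 and 18.8. Krt19 fell by 1.72 and 2.94. Sprr2a1 counts were 122, 123, 160 and 87 in WT, 10 and 13 in P7KO, 12 and 12 in DuxKO, 0 and 3 in P7OE, and 3 and 0 in DuxKO_P7OE. It was at least 35.2-fold lower in P7OE than in WT against the floor of 3 counts per library, and fell by 3.67 in P7KO and 3.19 in DuxKO. Its fitted value in P7OE, -6.11, was -4.71 and -9.86 without P7OE replicate 1 and 2. Sprr2a3 was at least 6.56-fold lower in P7OE, a call lost without P7OE replicate 1 (edgeR, Benjamini-Hochberg adjusted p = 0.0575), and its call in P7KO, at 3 and 2 counts, was lost without WT replicate 3 or 5 or either P7KO library (edgeR, Benjamini-Hochberg adjusted p of 0.0524 to 0.229). Cldn6 fell by 2.88 in P7KO and Dsp by 2.27, while Grhl3 (0.87) and Lama3 (0.85) were called higher there, calls lost without either P7KO library (edgeR, Benjamini-Hochberg adjusted p of 0.0648 to 0.145).

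Against WT of the Pramel7 table, Tmem40 was higher with Pramel7 overexpression and lower in both single knockouts. In the genotype table Tmem40 was not called in DuxKO. Its WT mean was 0.235 CPM there and 3.09 in the Pramel7 table, and the part of this WT level in the falls was not tested. In the Pramel7 table Tmem40 had 73, 73, 97 and 64 counts in WT, 0 and 2 in DuxKO, 6 and 2 in P7KO, 334 and 147 in P7OE, and 92 and 105 in DuxKO_P7OE. In CPM these were 2.76 to 3.73 in WT, 10.8 and 8.95 in P7OE, and 8.44 and 10.1 in DuxKO_P7OE, so both overexpression groups stood above WT and both knockouts below. Tmem40 rose by 1.68 ± 0.24 in P7OE (edgeR, Benjamini-Hochberg adjusted p = 0.000477) and fell by 4.50 in P7KO (5.38 without P7KO replicate 1). Against the floor of 3 counts per library it was at least 22.4-fold lower in DuxKO than in WT and at least 67.5-fold higher in DuxKO_P7OE than in DuxKO. Those fitted values, -5.99 and 7.58, became -5.34 and 6.92 without DuxKO replicate 3 and -9.11 and 10.69 without DuxKO replicate 4. The other members called higher in P7OE were Misp (2.03), Cldn3 (1.02), Grhl3 (0.59) and Spint1 (0.50); without either P7OE library Misp, Cldn3 and Grhl3 lost their calls (edgeR, Benjamini-Hochberg adjusted p of 0.074 to 0.228), and Cldn3 lies on chromosome 5, whose genes had a median of 0.42 in this comparison.

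**Figure D4:**
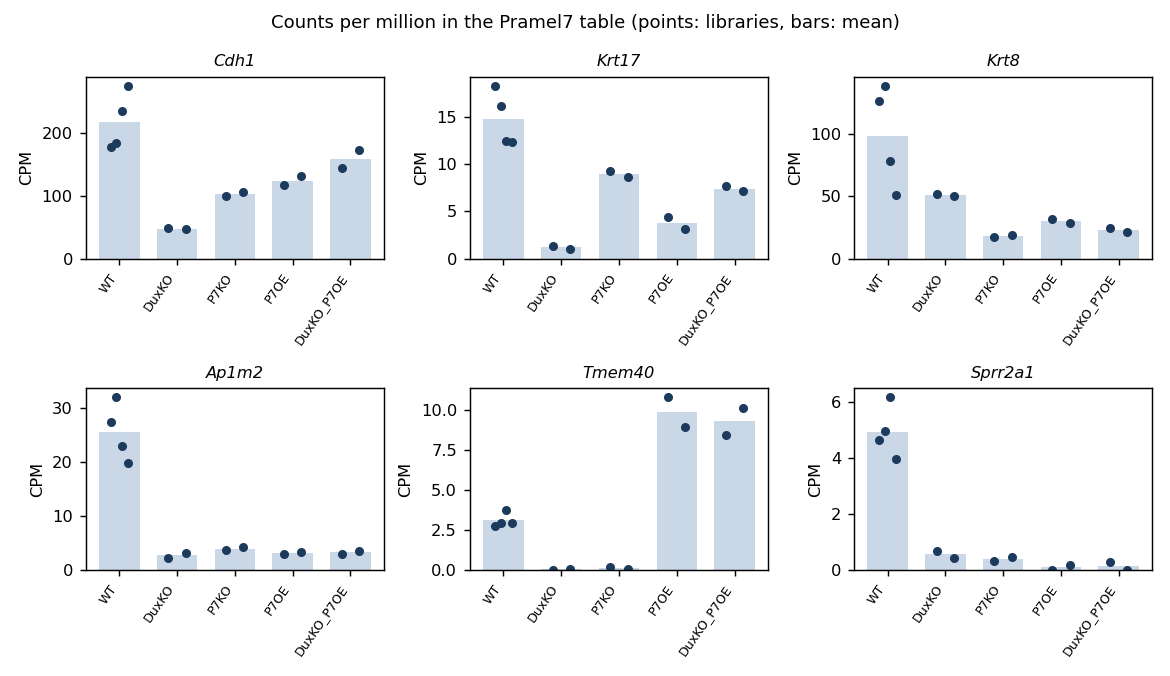
CPM in each library of the Pramel7 table (points; bars are group means) for Cdh1, Krt17, Krt8, Ap1m2, Tmem40 and Sprr2a1. Cdh1, Krt17 and Ap1m2 are lower than WT in every other library, whereas Tmem40 is higher in the P7OE and DuxKO_P7OE libraries.

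Pramel7 overexpression in Dux knockout cells gave another picture. Compared with DuxKO, 18 members of DuxKO_P7OE rose and 4 fell (11.6% and 9.83% of all genes), with a median of 0.71. Tmem40 had the largest increase, followed among genes well above the floor by Krt17 (2.67), Cldn3 (2.16) and Lama3 (1.90), and Misp (10 and 11 counts against 1 and 3) lost its call without each of the 4 libraries in turn (edgeR, Benjamini-Hochberg adjusted p of 0.0548 to 0.0943). Cdh1 rose by 1.73 and Esrp1 by 1.65. In this comparison genes of chromosome 5, with Cldn3, had a median of 0.292. Those of chromosome 11, with Krt17, had 0.229, and those of chromosome 8, with Cdh1, -0.315. Krt18 (-1.18), Krt8 (-1.17), Dsg2 (-0.84) and Itga6 (-0.73) were the 4 called lower. Krt8 lost the call without each library in turn (edgeR, Benjamini-Hochberg adjusted p of 0.102 to 0.151), Krt18 without DuxKO_P7OE replicate 1 (0.0836), and Dsg2 without either DuxKO library or DuxKO_P7OE replicate 2 (0.0817 to 0.162). The interaction of Pramel7 overexpression and Dux loss was added after the data had been seen. It was higher for 21 members and lower for 1 (4.27% and 3.23% of all genes), with a median of 1.41. It uses the same DuxKO libraries that were low for these genes, and also the 4 WT libraries. Of 48 members tested in both tables, 32 had these WT libraries above those of the genotype table and 2 had them below. The part of this WT level in the interaction was not tested. The largest interactions were those of Tmem40 (5.90 ± 0.63), Krt17 (4.63), Esrp1 (3.42) and Ap1m2 (3.26), and Itga6 (-0.89) was the lower one. Tmem40 was 5.23 without DuxKO replicate 3 and 9.01 without DuxKO replicate 4. Ap1m2 itself had 3.03 and 3.47 CPM in DuxKO_P7OE and 2.12 and 3.22 in DuxKO, so its interaction came with a fall in P7OE and no call in DuxKO_P7OE.

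DuxKO was compared with WT in 2 tables that share no library. Of the 15 members that fell in the genotype table and the 33 that fell in the Pramel7 table, 13 were the same: Cdh1, Epcam, Cldn4, Cldn6, Crb3, Esrp1, Grhl2, Krt17, Lama3, Lamb3, Jup, Spint2 and Ap1m2. Over all genes tested in both tables, 3.4% fell in both, 33.4% of those that fell in the first and 37.6% of those that fell in the second. Esrp1 fell by 1.62 and 3.52, Krt17 by 2.00 and 3.68, and Cdh1 by 0.52 and 2.19. Itga6 rose in both, by 0.56 and 0.58, the second not without DuxKO replicate 4 (edgeR, Benjamini-Hochberg adjusted p = 0.107). Krt8, Krt18 and Perp were called in opposite directions. Krt8 rose by 0.72 in the genotype table and was called lower by 0.95 in the Pramel7 table, Krt18 by 0.51 and 0.75, and Perp by 1.24 and 0.84. The Pramel7-table values depended on the WT libraries used: with WT replicates 3 and 4 only they were -1.42 for Krt8 and -1.06 for Krt18, and with replicates 5 and 6 only -0.37 and -0.43, neither called (edgeR, Benjamini-Hochberg adjusted p = 0.137 and 0.1). In the Pramel7 table all 3 calls were lost without DuxKO replicate 3 (edgeR, Benjamini-Hochberg adjusted p = 0.216, 0.202 and 0.0837), and those of Krt8 and Krt18 also without DuxKO replicate 4 or WT replicate 3 or 4; in the genotype table that of Krt18 was lost without 3 of the 4 libraries.

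The WT libraries of the 2 tables were set side by side, with no test, since the tables were normalised separately. Of 48 members tested in both, 32 had all 4 WT libraries of the Pramel7 table above both of the genotype table, 2 had them below and 14 overlapped; over all genes tested in both, 25.7% lay above and 19.6% below. Marker sums moved between these WT libraries too: trophoblast markers were 22.0 to 23.5 CPM in the genotype table and 38.6 to 59.1 in the Pramel7 table, genes of the mesenchymal counterpart 935 to 982 and 212 to 546, and further epithelial genes outside the set 1194 to 1231 and 1582 to 1717. Their part in the members' values was not tested. The summed CPM of the 51 members was 1219 to 1264 in the WT libraries of the Pramel7 table, between the 785 to 816 of WT and the 1657 to 1683 of CtbpDKO in the genotype table. Of the 30 members that rose in CtbpDKO, 12 had a highest Pramel7-table WT library at or above the lower CtbpDKO library: Cldn4, Esrp1, Esrp2, all 5 keratins, Dsc2, St14, Ap1m2 and Tmem40. Of all genes that rose in CtbpDKO, 37.4% did so, so that share of the members is near the background. Krt8 was at 51.0 to 139 CPM there, against 16.0 and 19.8 in the other WT libraries and 109 and 117 in CtbpDKO. For the other 18, among them Cdh1, Lamb3, Dsp, Pkp3, Ppl and Misp, all WT libraries of both tables lay below both CtbpDKO libraries. For Misp these were 0.091 to 0.795 CPM in the Pramel7-table WT libraries, against 8.51 and 8.72 in CtbpDKO.

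**Figure D5:**
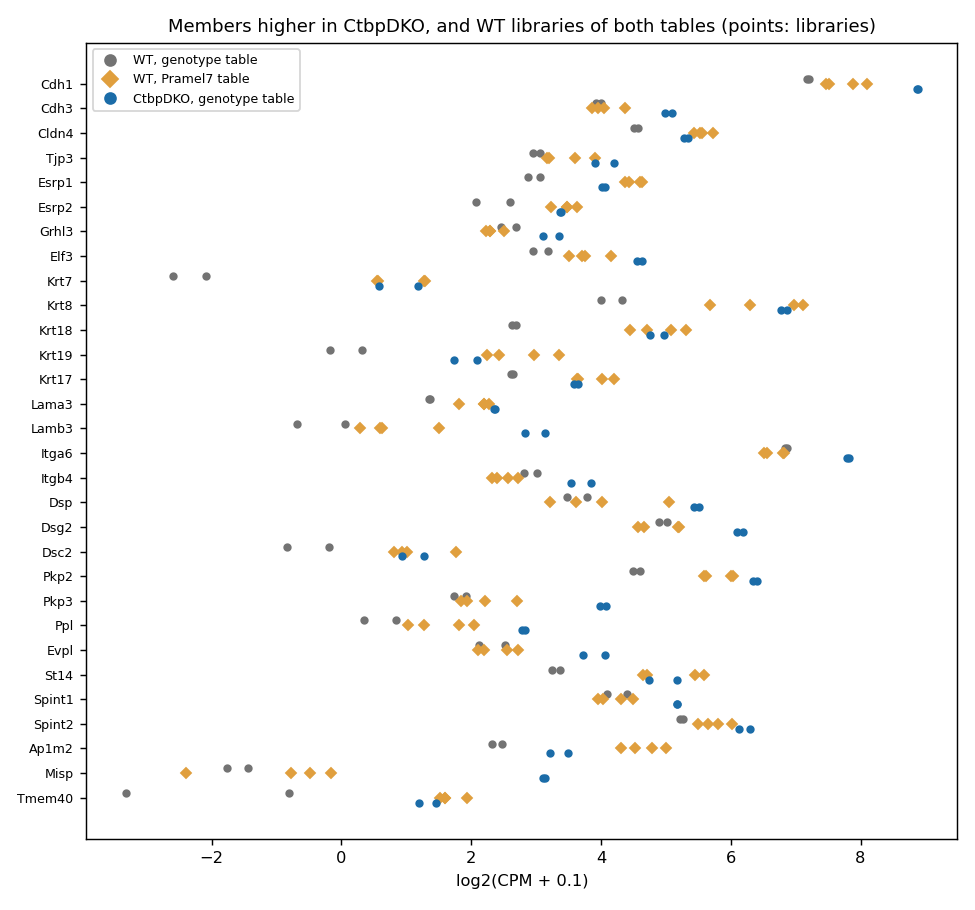
Level, as log2(CPM + 0.1), of the 30 members higher in CtbpDKO than in WT, in WT of the genotype table, the WT libraries of the Pramel7 table and the CtbpDKO libraries (1 point per library). For the keratins and 7 other members the WT libraries of the Pramel7 table reach CtbpDKO, and for 18 members, Cdh1, Lamb3 and Misp among them, they do not.

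A further list of 42 epithelial genes outside the set, of which 29 were tested in the genotype table, gave 11 higher and 0 lower in CtbpDKO (median 0.60), 17 and 1 in Ctbp_DuxTKO (1.83), and 14 and 2 in DKO_Dppa2 (0.80). In P7OE 9 of the 24 tested genes of that list fell and 2 rose. Of 8 genes of the mesenchymal counterpart, 2 rose and 3 fell in CtbpDKO. Shares over all genes, for these lists and those below, were 14.7% higher and 11.4% lower in CtbpDKO. They were 21.4% and 19.6% in Ctbp_DuxTKO, 15.2% in each direction in DKO_Dppa2, and 11% and 8.9% in P7OE. Marker lists of other cell types were read beside the members. The 8 embryonic stem cell markers summed to 2272 to 3134 CPM over the genotype libraries, so the labelled cell type was present throughout. The 10 trophoblast markers summed to 22.0 to 23.5 CPM in WT, 39.3 to 41.5 in CtbpDKO, 41.5 to 47.5 in Ctbp_DuxTKO, 15.1 to 16.1 in Dppa2KO and 53.8 to 55.5 in DKO_Dppa2; 4 of 9 tested rose in CtbpDKO, and Elf5 was at 0 in WT, DuxKO and Dppa2KO. The 12 endoderm markers summed to 39.3 to 52.3 CPM in WT, 52.1 to 54.4 in CtbpDKO, 7.75 to 8.54 in DuxKO and 232 to 251 in Ctbp_DuxTKO, where all 10 tested rose; in P7OE they summed to 129 to 144 against 9.31 to 12 in WT of that table. The 12 markers of 2-cell-like cells summed to 0.652 to 1.01 CPM in WT and 41.4 to 48.6 in CtbpDKO. Their sum was 0.133 to 0.136 in DuxKO and 4.69 to 4.81 in Ctbp_DuxTKO, and 0 to 0.110 in Dppa2KO and 1.14 to 2.05 in DKO_Dppa2. The 7 fibroblast markers summed to 3.02 to 3.03 in WT and 14.95 to 15.0 in CtbpDKO. In the time course the 2-cell-like sum was 44.3 to 57.3 CPM at day 0, 35.1 to 48.5 at day 3, 10.3 to 11.4 at day 9, 14.6 to 16.0 at day 12 and 38.7 to 46.7 at day 18, and the trophoblast sum was 58.3 to 61.4, 48.4 to 49.0, 60.5 to 65.2, 65.0 to 65.2 and 52.9 to 53.2 on the same days. The 6 surface ectoderm markers reached at most 1.77 CPM in any genotype library. The part of these cell types in the members' values was not tested.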

How the data were processed

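RNA was sequenced from 34 libraries of E14tg2a cells; 6 bisulfite libraries of the same series, 40 libraries in all, are not analysed here. The deposited values are raw read counts per gene symbol, whole numbers in 3 tables. A further table repeats the WT, DuxKO, CtbpDKO and Ctbp_DuxTKO libraries of the genotype table and was identical to it in all 442208 values. It holds no Dppa2KO or DKO_Dppa2 library. Per the labels' protocols a stranded kit was used, and the submitters' processing notes name Trim Galore, HISAT2, featureCounts and Bismark and the build mm10; versions, annotation and strand setting are not given in the sources used here. Groups came from the labels, and DKO_Dppa2 from the description where the fields conflict.

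Each table was fitted once with all its libraries in edgeR 4.0.16 (R 4.3.3, limma 3.58.1): filterByExpr, TMM, 1 coefficient per group, quasi-likelihood F tests, prior count 0.125, Benjamini-Hochberg adjustment over all genes tested, and a call at an adjusted p under 0.05. The fitting was tested on simulated data. Folds against a group at or under 3 counts per library are given as bounds. The members and lists (8 roles, further epithelial, mesenchymal, embryonic stem cell, trophoblast, endoderm, surface ectoderm, fibroblast and 2-cell-like genes) were chosen with earlier results of these data known. By the rule for named genes, the targeted genes come first; values in every library are given for up to 4 members per role with the largest absolute log2 fold change in CtbpDKO minus WT among those tested with a mean of at least 50 counts in the higher group, and for up to 4 called members per interaction. Elsewhere up to 4 called members per direction are named. Any other member may be named; those were chosen after their values were seen. Alternatives were DESeq2 1.42.0 and its size factors, upper-quartile scaling, no filter, a minimum log2 fold change of 1, only the groups compared, structural RNA removed, a prior count of 2, chromosomes whose median moved by over 0.2 left out, each library left out, a replicate block, and pairs of WT libraries.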

Additional observations from a re-analysis of the deposited data

Results flagged for a closer look

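These are responses that differed between backgrounds by an interaction test in edgeR (Benjamini-Hochberg adjusted p under 0.05), as log2 differences. The response to Ctbp loss was more positive in Dux knockout cells for Misp (3.87), Cldn6 (2.57), Esrp1 (2.37), Grhl2 (2.17, from -1.04 to 1.13), Krt17 (1.67) and Dsp (1.37), and smaller for Itga6 (-0.95). In Dppa2 knockout cells it was more positive for Misp (5.70), Lamb3 (4.97), Krt19 (4.04), Cldn6 (2.63), Ap1m2 (2.09) and Esrp1 (0.95), and smaller for Evpl (-1.42) and Itga6 (-0.77). The difference between Pramel7 overexpression with and without Dux was 5.90 for Tmem40, 4.63 for Krt17, 3.42 for Esrp1, 3.26 for Ap1m2 and 2.54 for Cdh1. The Pramel7 differences also use the 4 WT libraries of that table. For 32 of 48 members these lay above WT of the genotype table and for 2 below, and the part of this was not tested. Some of the listed differences rest on groups near 0. Misp had 1 and 0 counts in DuxKO and 0 and 0 in Dppa2KO. Lamb3 had 1 and 0 and Krt19 had 2 and 5 in Dppa2KO, and Tmem40 had 0 and 2 in DuxKO of the Pramel7 table. Without DuxKO replicate 1 or 2 the Misp difference in Dux knockout cells was 6.19 or 3.02, and with a prior count of 2 it was 2.21.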

How the results depend on the processing

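Counts of members are given as higher or lower calls. Requiring a log2 fold change of 1 left 1 lower in CtbpDKO, 0 in Ctbp_DuxTKO and 3 in DKO_Dppa2 against their matched groups; 1 higher and 9 lower in DuxKO, 0 and 8 in Dppa2KO; 6 and 0 for Ctbp_DuxTKO and 1 and 3 for DKO_Dppa2 against CtbpDKO; 0 and 2 lower in the Dux and Dppa2 interactions; 7 lower at day 3, 1 higher from day 3 to 9, 1 and 1 from day 9 to 12, 0 higher from day 12 to 18 and from day 0 to 18, and 1 and 3 from day 0 to 9; 3 higher in P7OE, 2 lower in DuxKO_P7OE, 0 higher in DuxKO (Pramel7 table) and P7KO, and 0 lower in the Pramel7 interaction. Fitting only the groups compared gave 3 lower in DKO_Dppa2 against Dppa2KO, 3 higher in Dppa2KO, 2 lower in Ctbp_DuxTKO and 9 in DKO_Dppa2 against CtbpDKO, 0 higher from day 12 and from day 0 to 18, 3 lower at day 9 against day 0, 2 higher in P7OE and 1 in DuxKO (Pramel7 table). With no filter, 16 were higher from day 3 to 9, 2 higher and 1 lower from day 12 to 18, 4 higher at day 18 against day 0, and 1 higher in DuxKO (Pramel7 table). DESeq2 size factors gave 1 lower from day 9 to 12, and DESeq2 itself 2 higher at day 18 against day 0. With WT replicates 3 and 4 only, 4 were higher in P7KO and 2 lower in the Pramel7 interaction, and 2 lower there with replicates 5 and 6 only. The cause of these shifts was not tested, beyond the stricter threshold and the fewer samples.

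With the replicate number as a block, 1 was lower from day 9 to 12, 0 higher from day 12 to 18 and 0 at day 18 against day 0. Deviations of same-numbered libraries had correlations of -0.37 to 0.167 between groups of the genotype table. The range was -0.215 to 0.106 in the time course and -0.0513 to 0.1 in the Pramel7 table. Whether same-numbered libraries shared a batch cannot be told from these values. No block was possible for P7OE and P7KO against WT or DuxKO_P7OE against DuxKO, which share no numbers. None was run for the Pramel7 interaction, where P7OE and DuxKO_P7OE share numbers, as do DuxKO and part of WT.

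Leaving out 1 library gave, higher then lower, 27 to 28 and 2 in CtbpDKO, 36 to 39 and 1 in Ctbp_DuxTKO, 28 to 29 and 3 to 5 in DKO_Dppa2, 3 to 4 and 12 to 16 in DuxKO, 1 to 5 and 9 to 12 in Dppa2KO, 6 to 7 and 0 to 2 for Ctbp_DuxTKO and 1 to 2 and 6 to 8 for DKO_Dppa2 against CtbpDKO, 12 to 15 and 1 to 4 for the Dux interaction, and 6 to 7 and 2 to 3 for that of Dppa2. In the time course it gave 1 and 7 to 14 at day 3, 1 to 4 and 0 from day 3 to 9, 1 to 2 and 1 from day 9 to 12, 0 to 1 and 0 to 1 from day 12 to 18, 0 to 3 and 0 from day 0 to 18, and 2 and 1 to 2 from day 0 to 9. In the Pramel7 table it gave 1 to 4 and 14 to 25 in P7OE, 14 to 16 and 2 to 4 in DuxKO_P7OE, 0 to 2 and 21 to 35 in DuxKO, 0 to 2 and 15 to 33 in P7KO, and 15 to 21 and 0 to 1 for the interaction. Cldn7 in CtbpDKO, 0.35 and not called, was -0.093 without CtbpDKO replicate 1 and 0.69 without replicate 2. Over all settings, single-gene results kept direction and side of the threshold in 2800 cases, lost the call in 243 and changed sign in 1. Groups of 2 and members at a few counts limit what small differences could be called.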
